A study of Mus musculus with 9 samples.

Results

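The genes described here encode 6 CXC chemokines of the mouse: Cxcl1, Cxcl2, Cxcl5 and Ppbp, which attract neutrophils, Pf4, which is stored in platelets, and Cxcl16, which is anchored in the cell membrane. They were picked by gene symbol, with earlier results of these same arrays known, in which several of them lay far lower in treated than in untreated cells. The levels and differences against untreated cells are therefore selected on the outcome and are given as a description, without a test. All 6 genes were found on the array, through 7 of the 20380 probe sets that carry exactly 1 gene symbol and stand for 12393 genes. Cxcl16 had 2 probe sets and each of the other genes had 1.

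The arrays measured RNA of mouse dendritic cells (DC), the antigen-presenting cells that prime T cells, in 3 groups of 3 arrays. The first group had been exposed to trichostatin A (TSA), a hydroxamate inhibitor of histone deacetylases, and the second to butyrate, a short-chain fatty acid that also inhibits histone deacetylases. The third group was untreated. In all 3 groups the cells came from spleens of mice aged 6 to 8 weeks that bore B16 melanoma tumours expressing Flt3L, a growth factor that expands DC, and had been purified on CD11c magnetic beads. The labels give no dose, duration, vehicle, mouse strain or stimulus, and do not say whether the 3 arrays of a group came from separate animals or cultures, so a p-value measures only the spread between these samples, which may be technical. DC genes were bright in every group: the MHC class II gene H2-Aa averaged 14.67 log2 units in TSA-treated, 14.55 in butyrate-treated and 14.65 in untreated cells, and Itgax, the gene of the CD11c used for purification, averaged 8.25, 8.499 and 9.24. The bead-purified cells also held RNA of neutrophil genes at high levels, with S100a8 at 13.73 in TSA-treated, 13.97 in butyrate-treated and 13.83 in untreated cells.

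CXC chemokines are small, mostly secreted proteins that guide leukocytes along concentration gradients through G protein-coupled receptors. Cxcl1, Cxcl2 and Cxcl5 carry the glutamate-leucine-arginine motif that binds Cxcr2 on neutrophils, and macrophages, DC, epithelium and endothelium make them when Toll-like receptors or inflammatory cytokines activate NF-kB. Ppbp is the precursor of the neutrophil attractant called Cxcl7 or NAP-2, and Pf4 is platelet factor 4. Both are best known from the alpha granules of platelets and from megakaryocytes, and both are also made by some myeloid cells. Cxcl16 is a transmembrane chemokine of macrophages and DC that binds Cxcr6 on T cells and natural killer T cells, takes up oxidised lipoprotein, and is released from the surface by the protease Adam10.

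Values are log2 intensities as deposited, and a difference of 1 is a doubling of the signal. As a yardstick for a probe set that sees no transcript, 33 probe sets of olfactory receptor genes were read, since these genes are mainly expressed in nasal sensory neurons. Their 90th percentile was 5.27 in TSA-treated, 5.29 in butyrate-treated and 5.31 in untreated cells, and a level at or under it is called within background here. A fold against such a level is not exact, so an at-least fold is given beside it, taken against the background level where that is the higher. Levels were not set against each other between genes. Where the signals of a marker list are summed, the sum weights each gene by the brightness of its probe set. Because the arrays hold RNA of a cell mixture, fewer cells of a type and less RNA per cell cannot be told apart.

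**Figure D1:**
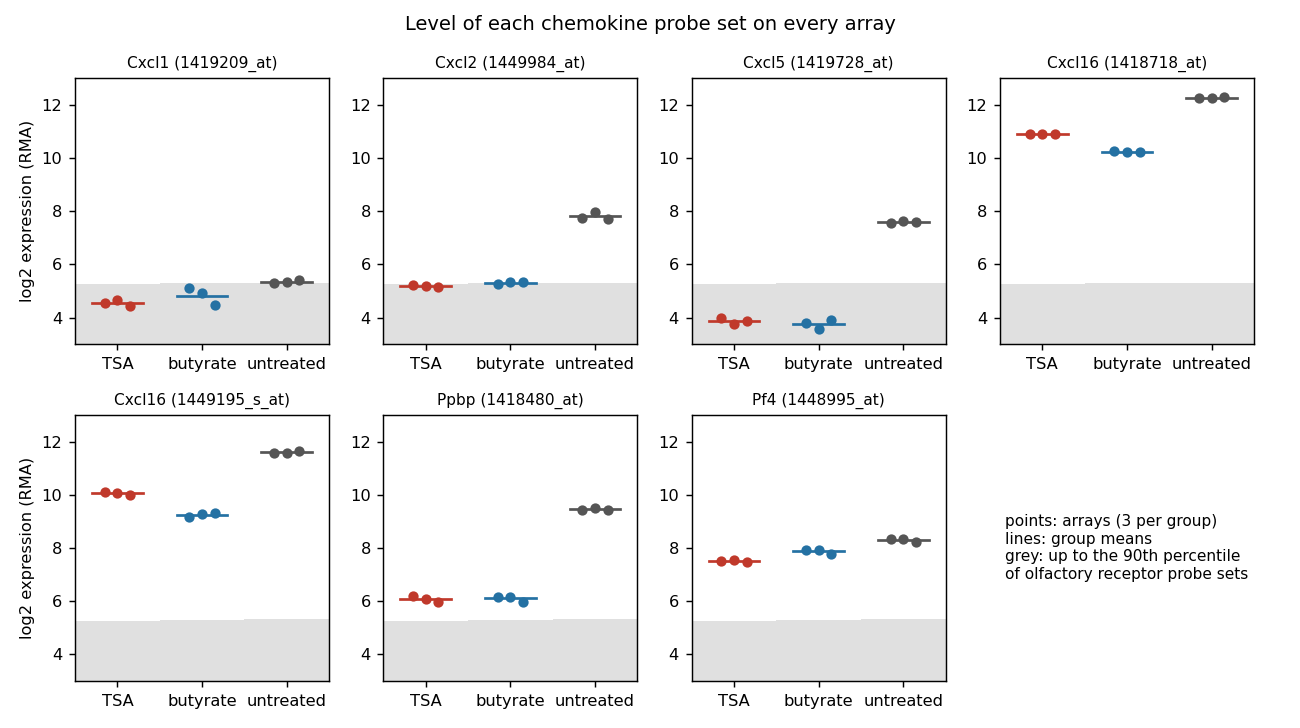
Log2 intensity (vertical axis) of the 7 probe sets of the 6 chemokine genes on each of the 9 arrays, grouped as TSA, butyrate and untreated, with points for arrays, lines for group means and grey up to the 90th percentile of the olfactory receptor probe sets. The untreated points lie above both treated groups in every panel, and the treated points of Cxcl1, Cxcl2 and Cxcl5 lie at or near the background level drawn from olfactory receptor genes.

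Cxcl5, an attractant of neutrophils made mainly by epithelial and some myeloid cells, was at background in both treated groups. Its probe set read 4.0, 3.78 and 3.87 on the TSA arrays, 3.79, 3.59 and 3.90 on the butyrate arrays, and 7.57, 7.63 and 7.58 on the untreated arrays. All treated arrays were within background and the untreated arrays stood well above it, with no overlap. The difference was -3.71 ± 0.08 (SE) with TSA and -3.83 ± 0.08 with butyrate. As linear folds the measured signal was 13.1-fold lower with TSA and 14.2-fold lower with butyrate. Against the background level the drop was at least 5.01-fold and at least 4.94-fold, since the treated cells give only an upper bound.

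Cxcl2, known as MIP-2 and an early signal of activated macrophages and DC, was likewise lower in both treated groups. It read 5.23, 5.17 and 5.14 on the TSA arrays, 5.28, 5.35 and 5.33 on the butyrate arrays, and 7.76, 7.97 and 7.71 on the untreated arrays. The TSA level was within background and the butyrate level of 5.32 ± 0.04 (SD, n = 3) lay just above it, while untreated cells averaged 7.82 ± 0.14. The difference was -2.64 ± 0.07 (SE) with TSA, which is 6.22-fold lower as measured and at least 5.84-fold against background. With butyrate it was -2.49 ± 0.07, or 5.64-fold lower.

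Cxcl1, known as KC and induced beside Cxcl2 in inflamed tissue, was close to background in all 3 groups. Its values were 4.56, 4.67 and 4.44 with TSA, 5.11, 4.91 and 4.47 with butyrate, and 5.30, 5.33 and 5.42 in untreated cells. The untreated mean of 5.35 ± 0.07 (SD, n = 3) was barely above the olfactory receptor level of 5.31, and both treated means were within it. The treated and untreated arrays did not overlap, but the differences of -0.79 ± 0.14 (SE) with TSA and -0.52 ± 0.14 with butyrate support a drop of at least 1.06-fold and 1.04-fold only. The butyrate arrays of Cxcl1 were the most scattered values among the 7 probe sets, with an SD of 0.33.

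The promoters of Cxcl1 and Cxcl2 are shown because both genes lie next to each other and are textbook targets of NF-kB, whose subunits are described further on. Each line holds the 250 bases before the start of the gene on the plus strand (RefSeq, GRCm38.p6), chr5:90890995-90891244 for Cxcl1 and chr5:90903649-90903898 for Cxcl2, and capitals mark matches to the NF-kB motif GGGANNNNCC on either strand.
Cxcl1: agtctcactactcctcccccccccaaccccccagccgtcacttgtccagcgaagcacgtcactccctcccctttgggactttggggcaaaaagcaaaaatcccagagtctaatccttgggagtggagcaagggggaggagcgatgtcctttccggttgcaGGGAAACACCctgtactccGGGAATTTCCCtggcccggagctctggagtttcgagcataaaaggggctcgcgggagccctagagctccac
Cxcl2: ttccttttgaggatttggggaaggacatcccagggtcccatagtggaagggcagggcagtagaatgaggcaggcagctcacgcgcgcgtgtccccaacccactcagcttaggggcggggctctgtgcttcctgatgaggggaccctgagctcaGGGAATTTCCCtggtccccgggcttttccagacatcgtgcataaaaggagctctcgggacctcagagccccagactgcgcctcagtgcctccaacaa
Cxcl1 held the matches GGGAAACACC, 90 to 81 bases before the start, and GGGAATTTCC, 71 to 62 bases before it, the second overlapping a match on the other strand. Cxcl2 held GGGAATTTCC 97 to 88 bases before its start, again with an overlapping match on the other strand. The longest run that both promoters shared was GGGAATTTCCCTGG, of 14 bases. It occurs on either strand in 2 of the 32851 promoters searched, which are those of Cxcl1 and Cxcl2 themselves. The run was picked from these promoters, so nothing is read from its rarity. A match to the motif itself is common, with 17.6% of all 32851 promoters of the same length holding one, and it describes letters, not binding.

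Ppbp was well above background in untreated cells and lower by more than 10-fold with either compound. Its probe set read 6.18, 6.09 and 5.95 on the TSA arrays, 6.18, 6.17 and 5.98 on the butyrate arrays, and 9.44, 9.50 and 9.43 on the untreated arrays. All treated arrays were above background, so no at-least fold is given, and no treated array came near an untreated one. The highest olfactory receptor probe set read 5.64 with TSA and 5.73 with butyrate. The treated levels lay not far above these, so some background in them is not excluded. The difference was -3.38 ± 0.07 (SE) with TSA, 10.4-fold lower and rank 7 from the lowest of 12393 genes. It was -3.35 ± 0.07 with butyrate, 10.2-fold lower and rank 17.

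Pf4, the gene next to Ppbp and its partner in platelet granules, differed far less. It read 7.50, 7.53 and 7.48 with TSA, 7.91, 7.93 and 7.78 with butyrate, and 8.32, 8.35 and 8.22 in untreated cells. The 3 groups did not overlap, with TSA at the bottom and untreated cells at the top. The difference was -0.79 ± 0.06 (SE) with TSA, 1.73-fold lower, and -0.42 ± 0.06 with butyrate, 1.34-fold lower. The rank of Pf4 among 12393 genes was 660 with TSA and 1876 with butyrate, against 7 and 17 for its neighbour Ppbp.

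The promoters of Ppbp and Pf4 are shown because the neighbours differed so unequally. They span chr5:90768268-90768517 and chr5:90772185-90772434 on the plus strand (RefSeq, GRCm38.p6, 250 bases before the start), and capitals mark the letters TATAAA, found on either strand in 12.4% of the 32851 promoters.
Ppbp: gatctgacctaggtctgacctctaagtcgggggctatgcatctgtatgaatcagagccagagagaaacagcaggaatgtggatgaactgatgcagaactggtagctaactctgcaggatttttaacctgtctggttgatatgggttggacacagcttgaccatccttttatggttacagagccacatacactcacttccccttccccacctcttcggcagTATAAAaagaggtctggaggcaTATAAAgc
Pf4: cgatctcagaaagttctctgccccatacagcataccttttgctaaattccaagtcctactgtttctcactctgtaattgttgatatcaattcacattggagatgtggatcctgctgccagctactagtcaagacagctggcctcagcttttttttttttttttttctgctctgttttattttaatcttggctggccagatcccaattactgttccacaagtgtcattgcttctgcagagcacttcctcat
Ppbp held TATAAA 30 to 25 and 8 to 3 bases before its start and a match to the AP-1 motif 204 to 198 bases before it. The AP-1 letters searched were TGANTCA, which 6.7% of all promoters hold on either strand. The GATA motif, searched as AGATAA, occurs in 3281 of the 32851 promoters. The Ppbp window held no match to the NF-kB or GATA letters. The Pf4 window held no match to the NF-kB, TATA, AP-1 or GATA letters. Such an absence says only that these letters are not in the window. The promoters of Cxcl5 and Cxcl16 were not analysed here.

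Cxcl16 was measured by 2 probe sets far above background. The probe set with the higher mean read 10.93, 10.91 and 10.91 with TSA, 10.25, 10.25 and 10.22 with butyrate, and 12.25, 12.28 and 12.32 in untreated cells. The second probe set read 10.12, 10.05 and 10.01 with TSA, 9.15, 9.27 and 9.30 with butyrate, and 11.59, 11.59 and 11.63 in untreated cells. Both gave the same order, with butyrate lowest, TSA between and untreated cells highest, and the 3 groups did not overlap in either. The first probe set differed by -1.37 ± 0.04 (SE) with TSA, 2.58-fold lower, and by -2.04 ± 0.04 with butyrate, 4.12-fold lower. The second gave -1.54 ± 0.06, 2.91-fold lower, and -2.36 ± 0.06, 5.14-fold lower.

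**Figure D2:**
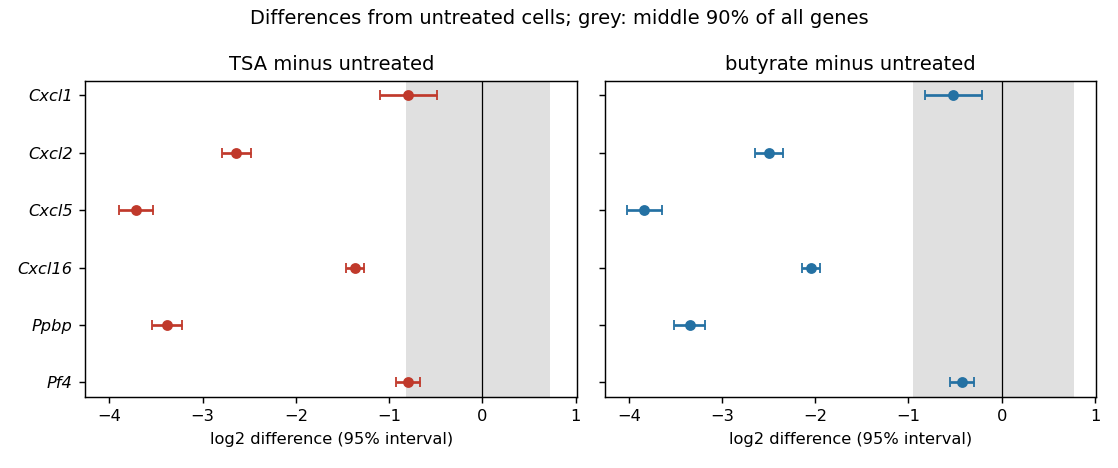
Difference in log2 intensity against untreated cells (horizontal axis) for the 6 genes with TSA and with butyrate, with the 95% interval of the fit as bars and the middle 90% of all genes in grey. Cxcl5, whose treated levels are within background, and Ppbp lie at -3.35 or lower with both compounds, Cxcl16 lies further from 0 with butyrate, and Cxcl1 and Pf4 lie nearest to 0.

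In the fit across 12393 genes (limma, adjusted p under 0.05) all 6 genes were called lower and 0 higher with TSA, where 21.0% of all genes were called lower and 26.3% higher. With butyrate, again 6 were lower and 0 higher, beside 24.8% and 33.6% of all genes. The genes were picked with these contrasts known, so nothing is read from the counts. The median difference of the 6 genes was -2.00 with TSA and -2.27 with butyrate, and over all genes it was 0.03 and 0.09; the choice of the genes fixed this gap, and Cxcl1, Cxcl2 and Cxcl5 enter with values limited by background. Both contrasts share the untreated arrays, so their likeness is partly built in.

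Butyrate was then set against TSA directly, for each of the 6 genes. The untreated arrays enter only the estimate of the spread in this contrast. Doses and times are not given, so the comparison is between these samples and not between equal exposures. Cxcl16 was 1.60-fold lower with butyrate than with TSA, a difference of -0.67 ± 0.04 (SE) with a 95% interval of -0.77 to -0.58 and an adjusted p of 8.6e-06 (limma), and all 3 butyrate arrays lay below all 3 TSA arrays. Its second probe set gave -0.82 ± 0.06, interval -0.95 to -0.70, adjusted p 1.81e-05 over 20380 probe sets. Pf4 was 1.29-fold higher with butyrate, a difference of 0.37 ± 0.06 with an interval of 0.24 to 0.50 and an adjusted p of 0.000913, in 3 of 3 arrays, but the difference was 0.004 when arrays were scaled on hybridization spike-ins and 0.018 on poly-A spike-ins.

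The other 4 genes did not pass the test between the compounds. For Cxcl5 the difference was -0.12 with an interval of -0.31 to 0.07 (adjusted p 0.287), with overlapping arrays that were all within background. Ppbp gave 0.04 with an interval of -0.13 to 0.20 (adjusted p 0.731), so any difference larger than 0.20 either way lies outside the interval, though it became -0.33 on the hybridization spike-in scale. Cxcl2 gave 0.14, interval -0.01 to 0.30 (adjusted p 0.133), without overlap of the arrays, but its sign changed when arrays were scaled on the hybridization spike-ins, to -0.22. Cxcl1 gave 0.28, interval -0.03 to 0.58 (adjusted p 0.144) and -0.09 on the hybridization scale, and without butyrate replicate 3 it was 0.458 and passed the test. On the hybridization scale Cxcl5 at -0.485 passed too, as did the turned values of Ppbp and Cxcl2, while on the poly-A scale Cxcl1, Cxcl2 and Ppbp gave -0.075, -0.21 and -0.315 and did not pass. As deposited, 1 gene was lower and 1 higher with butyrate than with TSA, where 20.0% of all genes were called lower and 15.9% higher.

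**Figure D3:**
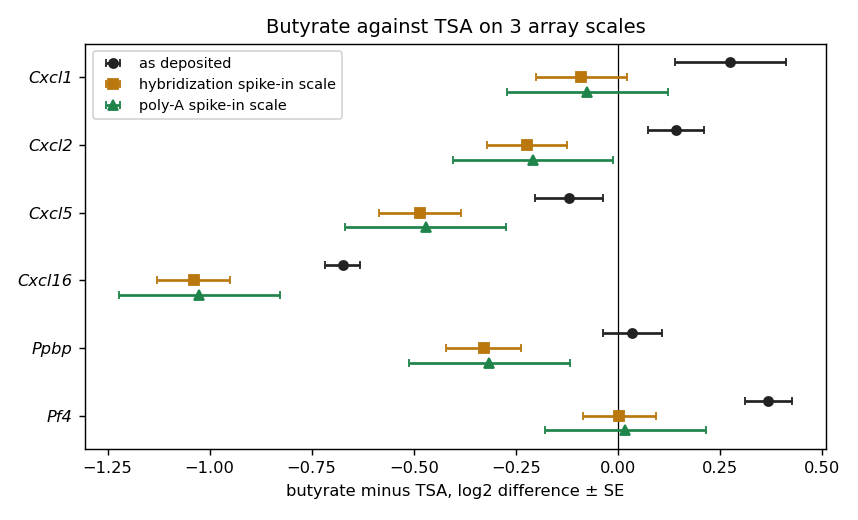
Butyrate minus TSA in log2 units (horizontal axis) for the 6 genes as deposited and on both spike-in scales, with the SE as bars. Cxcl16 lies below 0 on every scale, and Pf4 lies at 0.37 on the deposited scale and near 0 on the spike-in scales.

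The scale matters because the signal of the control RNAs differed between arrays. The 7 hybridization spike-in probe sets averaged 10.81 to 10.86 on the TSA arrays, 11.15 to 11.25 on the butyrate arrays and 10.71 to 10.88 on the untreated arrays. The 12 poly-A spike-in probe sets averaged 8.64 to 8.96 with TSA, 9.09 to 9.28 with butyrate and 8.49 to 9.10 in untreated cells. On the poly-A spike-ins the butyrate and untreated arrays thus overlapped, with butyrate replicate 3 at 9.0852 and untreated replicate 1 at 9.102. On the hybridization scale the median change of all genes was -0.02 with TSA, -0.34 with butyrate and -0.33 for butyrate against TSA, and on the poly-A scale it was 0.04, -0.26 and -0.32, against 0.03, 0.09 and 0.03 as deposited. A difference with butyrate that is above 0 but smaller than this shift turns below 0 on the spike-in scales, which holds for the genes of every list described here. Against untreated cells all 6 chemokine genes were lower on both scales. With butyrate Pf4 was at -0.84 and Cxcl1 at -0.94 on the hybridization scale, and Cxcl16 stayed lower with butyrate than with TSA at -1.04 and -1.03 on the 2 scales.

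Cxcl5, Ppbp, Pf4, Cxcl1 and Cxcl2 are neighbours on chromosome 5, and the genes around them served as a look at the surroundings. In RefSeq's order (GRCm38.p6) the run is Afm, Albfm1, Rassf6, Cxcl5, Ppbp, Pf4, Cxcl3, Cxcl15, Cxcl1, Cxcl2, Mthfd2l, Epgn and Ereg, of which Albfm1, Rassf6, Cxcl3 and Mthfd2l were not analysed here. Cxcl15, the measured CXC gene between Pf4 and Cxcl1, which is known as lungkine from lung epithelium, differed by -0.10 with TSA and 0.14 with butyrate at a level within background. The flanking genes Afm, Epgn and Ereg gave -0.003, 0.13 and 0.04 with TSA and 0.07, 0.25 and 0.12 with butyrate. Ereg, like Cxcl15, was within background in TSA-treated, butyrate-treated and untreated cells, at 3.63, 3.71 and 3.59, so neither could show a drop. Epgn, at 5.32 in untreated cells, was barely above the background level of 5.31 and could hardly show one. Afm, at 5.82 there, left little room for one. None of these 4 genes was called against untreated cells.

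**Figure D4:**
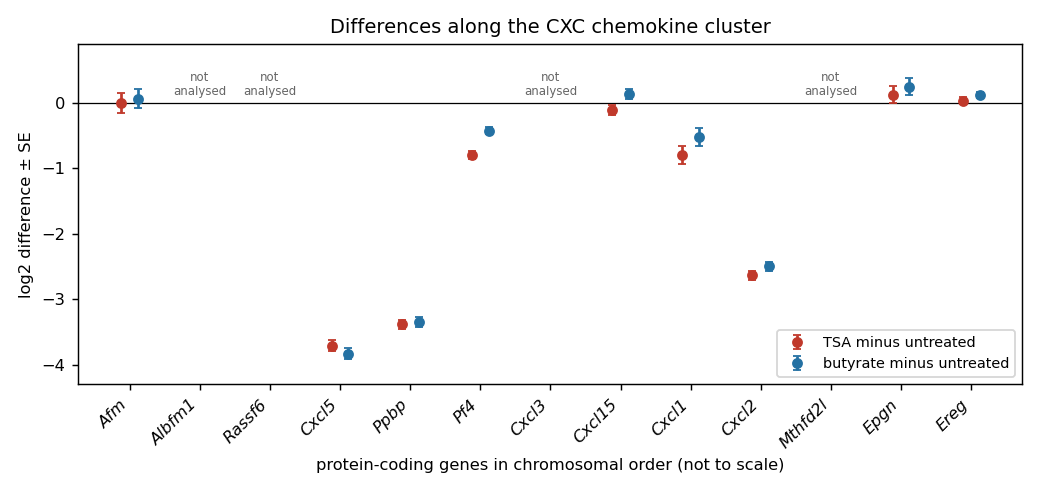
Difference in log2 intensity against untreated cells (vertical axis) for the measured genes in their order along chromosome 5 (horizontal axis, gene order and not to scale), with TSA and butyrate side by side and the SE as bars. Cxcl5, Ppbp and Cxcl2 drop to -2.49 or lower, while Afm, Cxcl15, Epgn and Ereg lie within 0.25 of 0. In untreated cells Cxcl15 and Ereg are within background and Epgn is barely above it, so these could hardly show a drop.

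Cxcl16 lies on chromosome 11, apart from the other genes. Its measured neighbours moved in both directions: Arrb2, which encodes beta-arrestin, differed by 0.60 with TSA and 0.43 with butyrate, Med11, a Mediator subunit, by -0.49 and -0.46, and Pelp1 by 0.25 and -0.08. Tm4sf5 differed by -1.40 and -1.02, next to -1.37 and -2.04 for Cxcl16.

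Ppbp and Pf4 are platelet genes, and the platelet and megakaryocyte markers were therefore read beside them. Of 18 listed markers, 13 were measured, and with TSA 0 were higher and 5 lower, with butyrate 4 higher and 4 lower. Over all genes 26.3% were higher and 21.0% lower with TSA, and 33.6% and 24.8% with butyrate, and the butyrate counts are near those shares. Their median difference was -0.06 with TSA and 0.08 with butyrate, against 0.03 and 0.09 over all genes. Summed on the linear scale, their signal was 1361 to 1404 on the TSA arrays, 1490 to 1540 on the butyrate arrays and 2042 to 2103 on the untreated arrays. None was at 0, and 2, 1 and 2 of the 13 were within background in TSA-treated, butyrate-treated and untreated cells.

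The platelet integrin gene Itga2b averaged 7.58 with TSA, 7.76 with butyrate and 7.57 in untreated cells, a difference of 0.01 and 0.19 with the compounds. The megakaryocyte and erythroid factor Gata1 averaged 6.87, 6.95 and 6.87, and its differences of -0.002 and 0.08 were not called. Nfe2, a factor needed for platelet formation, fell, with differences of -1.04 with TSA and -0.965 with butyrate (limma, adjusted p 2.92e-07 and 3.7e-07). F13a1, coagulation factor XIII that monocytes also make, fell too, with differences of -1.67 and -2.05 (adjusted p 1.91e-05 and 3.35e-06) and was picked after its values were seen. Further markers called lower, named after their values were seen, were Clec1b, at -0.80 with TSA and -0.71 with butyrate, and Vwf, at -0.60 and -0.42. Vwf was within background in every group. Thbs1 was lower with TSA only, at -0.61. The 4 markers called higher with butyrate were Selp at 0.476, Treml1 at 0.33, Gp1bb at 0.25 and Itga2b at 0.19. Selp, Treml1 and Gp1bb were not called with TSA and were named after their values were seen. The share of platelets in the Ppbp and Pf4 signals was not tested.

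**Figure D5:**
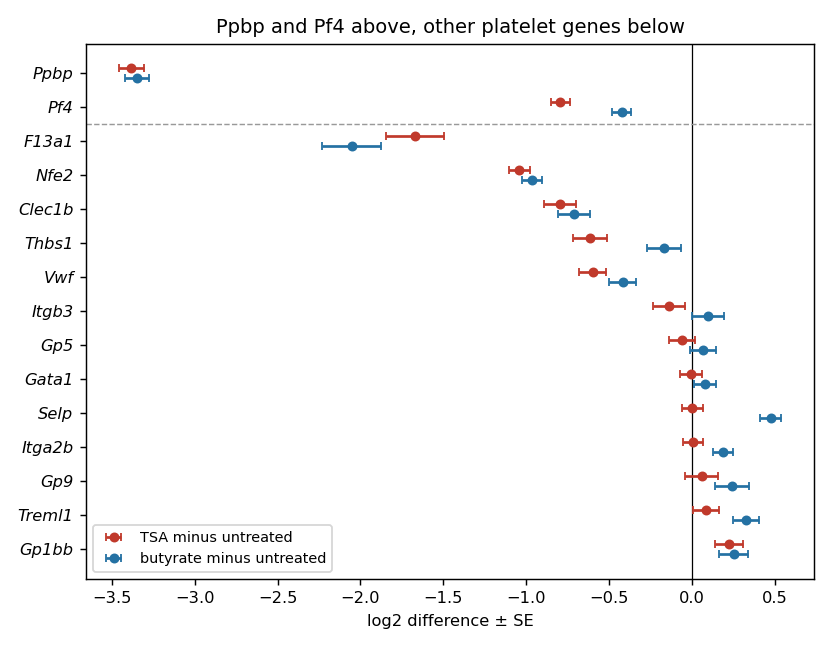
Difference in log2 intensity against untreated cells (horizontal axis) for Ppbp, Pf4 and the 13 measured platelet and megakaryocyte markers, with TSA and butyrate and the SE as bars. Ppbp lies at -3.38 and -3.35 and Pf4 at -0.79 and -0.42. Of the markers, Itga2b and Gata1 lie within 0.19 of 0. F13a1 lies at -1.67 and -2.05, Nfe2 at -1.04 and -0.965 and Clec1b at -0.80 and -0.71. With TSA 0 markers were called higher. With butyrate 4 were, Selp at 0.476, Treml1 at 0.33, Gp1bb at 0.25 and Itga2b at 0.19.

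Markers of the other cells that make these chemokines moved as well. All 18 macrophage and monocyte markers were measured, and 17 were lower with TSA and 16 with butyrate, with 0 and 1 higher. Over all genes 21.0% were lower and 26.3% higher with TSA, and 24.8% and 33.6% with butyrate. Their summed signal was 8941 to 9699 with TSA, 8203 to 8766 with butyrate and 15025 to 15970 in untreated cells. Among them Csf1r, the receptor for the macrophage growth factor, fell, with differences of -1.14 with TSA and -1.31 with butyrate. The lysozyme gene Lyz2 fell as well, with differences of -0.38 and -0.30, and so did the haem oxygenase Hmox1, at -0.20 and -0.725. Their part in the levels of Cxcl2, Cxcl16 and Pf4 was not tested.

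Neutrophils answer Cxcl1, Cxcl2, Cxcl5 and Ppbp and can make some of them. Of 13 measured neutrophil markers of 15 listed, 10 were lower and 0 higher with TSA, and 7 lower and 3 higher with butyrate. S100a8 and S100a9, which are abundant in neutrophils, differed by -0.10 each with TSA and by 0.13 and 0.21 with butyrate, and Ngp, a granule protein, by -0.61 and -0.44. Other markers, named after their values were seen, fell further. Camp differed by -2.14 with TSA and -2.02 with butyrate, and Mmp8 by -1.39 and -2.27. Mmp9 differed by -1.28 and -0.82, and Csf3r by -1.065 and -1.16. Also named after their values were seen, others did not fall with both compounds. Prtn3 was not called with TSA, at -0.12, and was higher with butyrate, at 0.32. Ltf, Lcn2 and Padi4 were lower with TSA, at -0.73, -0.46 and -0.90. With butyrate these 3 were not called, at -0.14, -0.01 and 0.18. The summed signal was 33966 to 35380, 41469 to 42008 and 43022 to 44333 in TSA-treated, butyrate-treated and untreated cells. The 10 stromal and endothelial markers summed to 411 to 448, 443 to 468 and 552 to 572, in TSA-treated, butyrate-treated and untreated cells, with 0 higher and 3 lower with TSA and 3 higher and 3 lower with butyrate. The 6 measured B16 melanoma markers summed to 440 to 451, 446 to 478 and 561 to 632 in the 3 groups, with 1 higher and 2 lower with TSA and 2 higher and 1 lower with butyrate. Among them Mitf, which other cells also express, averaged 7.79 with TSA, 7.69 with butyrate and 8.52 in untreated cells. Pmel and Sox10 were higher with butyrate by 0.265 and 0.16, and Tyr, Tyrp1 and Dct, named after their values were seen, were within background in every group. The other marker lists, for B, T and NK, erythroid and dendritic cells, held 5, 7, 5 and 13 measured genes, of which 3, 3, 4 and 7 were lower with TSA and 2, 1, 3 and 7 with butyrate. In the same lists 0 genes were higher with TSA, and 0, 1, 1 and 2 were higher with butyrate. Beside all these counts stand 21.0% of all genes lower and 26.3% higher with TSA, and 24.8% and 33.6% with butyrate. With so few genes, the B16 counts and the butyrate counts of stromal and endothelial markers lie near those shares. The part of these cells in the chemokine levels was not tested.

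The remaining CXC chemokines had smaller or opposite differences, but most were too dim to show a drop. In untreated cells Cxcl12 and Cxcl15 averaged 4.405 and 4.865, within background. Cxcl11, Cxcl14 and Cxcl17 averaged 5.35, 5.43 and 5.51 there, close to the background level of 5.31. Of 8 measured of 9 listed, 1 was higher and 1 lower with TSA, beside 26.3% and 21.0% of all genes. With butyrate 4 were higher and 0 lower, beside 33.6% and 24.8%. The medians were 0.05 with TSA and 0.24 with butyrate. Cxcl9, an interferon-induced attractant of T cells, averaged 8.21 ± 0.19 with TSA, 9.20 ± 0.13 with butyrate and 7.89 ± 0.19 in untreated cells (SD, n = 3 each). It rose by 1.30 with butyrate (limma, adjusted p 4.1e-06). With TSA the difference of 0.315 barely passed (adjusted p 0.0458), and the call was lost on both spike-in scales, with only the 2 groups compared, and without any of TSA replicates 1 and 2, butyrate replicates 2 and 3 and untreated replicates 1 and 3, down to 0.221 without TSA replicate 1. Cxcl10, induced by interferon too, fell by 0.49 with TSA and rose by 0.73 with butyrate (adjusted p 0.00376 and 0.000243). Both calls were lost on the poly-A scale, and the difference with butyrate was 0.307 on the hybridization scale. Butyrate against TSA gave 0.99 for Cxcl9 and 1.22 for Cxcl10. Cxcl11, of the same receptor group, rose by 0.555 with butyrate, but by 0.305 with all its probe sets averaged, and its 0.136 and 0.21 on the hybridization and poly-A scales did not pass.

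Among the receptors, 7 of 8 listed genes were measured, with 5 lower and 0 higher with TSA and 4 lower and 1 higher with butyrate. Of all genes, 21.0% were lower and 26.3% higher with TSA, and 24.8% and 33.6% with butyrate. Cxcr2, the receptor for Cxcl1, Cxcl2, Cxcl5 and Ppbp, averaged 5.30 with TSA, 5.52 with butyrate and 5.31 in untreated cells, at or just above background. It differed by -0.01 with TSA and by 0.21 with butyrate (adjusted p 0.0121), but -0.21 under hybridization spike-in scaling and -0.13 under poly-A scaling, and the call was lost after further quantile normalization (0.1). Cxcr6, the receptor of Cxcl16, was within background in TSA-treated, butyrate-treated and untreated cells, at 4.80, 4.865 and 5.06. Cxcr4, which binds Cxcl12 and holds cells in bone marrow, fell, with differences of -1.14 with TSA and -1.58 with butyrate. Cxcr3, which binds Cxcl9 and Cxcl10 and in humans also Pf4, differed by -1.01 and -0.946. Cxcr5, whose level with TSA was within background (at least 1.79-fold lower), differed by -0.85 and -0.53, the second not passing without butyrate replicate 2 (-0.396) or untreated replicate 3 (-0.381). The scavenger receptor Ackr3 differed by -0.41 and -0.46 at levels within background, and the TSA call was lost on the poly-A scale.

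The proteases that release Cxcl16 from the cell surface differed little. Adam10 averaged 10.84 with TSA, 10.97 with butyrate and 10.83 in untreated cells, a difference of 0.005 with TSA and 0.14 with butyrate (adjusted p 0.022) that turned to -0.28 on the hybridization scale and -0.20 on the poly-A scale, was 0.025 with all probe sets averaged, and did not pass without butyrate replicate 1 or 2 or untreated replicate 2. Adam17, a related sheddase, fell by 0.22 with TSA, a call lost on the poly-A scale. Of 4 measured genes of 5 in this group, 1 was lower and 0 higher with TSA, and 0 were lower and 2 higher with butyrate. The shares over all genes were 21.0% lower and 26.3% higher with TSA, and 24.8% and 33.6% with butyrate. Cxcl16 itself differed by -1.37 and -2.04.

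Genes of NF-kB subunits, which drive Cxcl1, Cxcl2 and Cxcl5 in myeloid cells, and of NF-kB regulators, among them inhibitors, were mostly lower. Of 10 measured of 12 listed genes, 9 were lower and 1 higher with TSA, beside 21.0% and 26.3% of all genes. With butyrate 8 were lower and 2 higher, beside 24.8% and 33.6%. The medians were -0.68 with TSA and -0.77 with butyrate. Higher as deposited were the inhibitor gene Nfkbia, at 0.24 with TSA and 0.415 with butyrate, and, with butyrate, Nfkbiz at 0.33. The part of these genes in the chemokine levels was not tested. Relb, the subunit of the alternative pathway, read 9.21, 9.10 and 9.14 with TSA, 8.98, 9.06 and 8.98 with butyrate, and 11.38, 11.36 and 11.41 in untreated cells. No treated array came near an untreated one, and the differences were -2.24 with TSA and -2.38 with butyrate. Rel differed by -1.05 and -1.74, and butyrate against TSA gave -0.69 (adjusted p 3.35e-05). Bcl3 differed by -1.195 and -1.21, and Nfkb2 by -0.925 and -0.95. With all its probe sets averaged, Nfkb2 differed by -0.711 with TSA and -0.565 with butyrate. Nfkbiz, an inducible coactivator, was 0.66 higher with butyrate than with TSA, and 0.306 higher without passing on the poly-A scale.

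Of 16 measured genes for other signals that bring in neutrophils, of 17 listed, 7 were lower and 4 higher with TSA, beside 21.0% and 26.3% of all genes. With butyrate 3 were lower and 6 higher, near the shares of all genes of 24.8% and 33.6%. The cytokine genes Il6 and Il1b fell, with differences of -1.74 and -1.22 with TSA and -2.09 and -1.02 with butyrate, where the Il6 level was within background and the drop at least 3.93-fold. Lta4h, the enzyme that makes leukotriene B4, rose by 0.81 with TSA and 0.83 with butyrate, but by 0.393 and 0.428 with all its probe sets averaged, and by 0.406 with butyrate on the hybridization scale. Tnf rose by 0.96 with butyrate and by 0.545 on the hybridization scale, and Ccl3 fell by 0.54 with TSA.

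The genes whose pattern over the 9 arrays was most like that of a chemokine were found by the root mean square of the centred log2 difference, for the 4 genes that span at least 1 log2 unit. For Cxcl5 these were Pdcd1lg2 (0.082), Papss2 (0.15) and Il12b (0.25). Cxcl16 was nearest to Tlr1 (0.046), Mdfic (0.06) and Tmem176b (0.08), all 3 with the order butyrate, TSA, untreated from low to high. Cxcl2 was nearest to Serpinb9b (0.14), Gtf2a1 (0.18) and Spic (0.185), and Ppbp to Fabp5 (0.21), Lad1 (0.23) and Kmt5b (0.24). The arrays share their groups, so such likeness describes the group means and no more.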

How the data were processed

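RNA of 9 dendritic cell samples was measured on one-colour Affymetrix arrays of 22690 probe sets. The deposited values are log2 intensities; the submitters' processing notes name RMA, which corrects background, quantile-normalizes arrays and summarises probes, without a version, and with no scan date given in the sources used here no batch was tested. Quantile normalization removes any change shared by most genes. After leaving out 64 control probe sets, 20380 had 1 gene symbol in the platform annotation, 691 several and 1555 none, and 20351 were matched to RefSeq by gene ID, which changed 0 symbols. For each of 12393 genes the brightest probe set on average was used. One limma fit (version 3.58.1, R 4.3.3) to all 9 arrays, with 6 residual and 3.9 prior degrees of freedom, gave 3 contrasts, Benjamini-Hochberg adjusted over all genes and called at 0.05. The fit was tested on simulated data drawn independently for each gene and array, without a shift of scale. That run therefore says nothing about the choice of scale. Correlations within groups, across genes, were 0.9971 to 0.9985. The number of arrays limits the precision.

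The 6 genes and all gene lists were chosen with earlier results of these data known. Named genes were the 6 chemokines, Cxcr2, Cxcr3 and Cxcr6, and up to 4 called genes of each pathway list with the largest differences. Up to 3 of highest mean in marker lists and the 3 nearest genes per chemokine were named too. Itgax, Cxcl14 and Cxcl17 were named outside that rule, as were markers given as picked or named after their values were seen. The 17 alternatives covered the test, the probe sets used, scaling, dim genes and leaving out arrays.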

Additional observations from a re-analysis of the deposited data

How the results depend on the processing

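The differences against untreated cells chose the 6 chemokine genes, so their staying below 0 under the alternatives is a description and supports nothing. Leaving out dim genes removed Cxcl1 and Cxcl5 (means 4.91 and 5.08, under 5.29), which left 4 genes. The scale changed the most. As deposited, 2604 genes were lower and 3262 higher with TSA, 3075 and 4166 with butyrate, and 2480 and 1968 for butyrate against TSA. On the poly-A spike-in scale, 1211 genes were lower and 1233 higher with TSA, 3389 were lower and 543 higher with butyrate, and for butyrate against TSA 2931 were lower and 17, 0 of them chemokines, higher, with Pf4 at 0.018. On the hybridization scale, 8448 genes were lower and 916 higher with butyrate, and for butyrate against TSA 9202 were lower and 110 higher, with 4 chemokines lower and 0 higher: Cxcl2 -0.222, Cxcl5 -0.485, Ppbp -0.329, Cxcl16 -1.04 and Pf4 0.004, the last not called. The cause was not tested beyond the spike-in levels given above.

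Of values that passed the test in either setting, turned signs, butyrate against untreated cells, were on the hybridization scale Adam10 -0.278, Cxcl12 -0.115, Cxcr2 -0.207 and Timp3 -0.153, and on the poly-A scale Adam10 -0.204, Cxcl12 -0.041, Cxcr2 -0.133 and Timp3 -0.079. For butyrate against TSA they were on the hybridization scale Adam10 -0.229, Alox5ap -0.047, Cxcl15 -0.124, Cxcr2 -0.141, Cxcr3 -0.302, Cxcr6 -0.300, Nfkbia -0.187 and Timp3 -0.080, and on the poly-A scale Adam10 -0.215, Alox5ap -0.032, Cxcl15 -0.110, Cxcr2 -0.127, Nfkbia -0.173 and Timp3 -0.066. Cxcr3 and Cxcr6 turned there too, at -0.287 and -0.286, without passing in either setting.

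Leaving out 1 array at a time, the chemokines higher with butyrate than with TSA numbered 1 to 2, with Cxcl1 at 0.135 to 0.458 and Cxcl2 at 0.121 to 0.167. Cxcl1 passed the test without butyrate replicate 3 and Cxcl2 without untreated replicate 2.

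The deviations of same-numbered arrays gave correlations of either sign, from -0.1197 to 0.2098 over 9 pairs. Differently numbered arrays of different groups gave -0.2463 to 0.157. The deviations were taken from means of only 3 arrays, so these values cannot settle whether the numbers pair the samples. With the replicate block, butyrate against TSA gave 2309 genes lower and 1807 higher, Cxcl16 at -0.674 and Pf4 at 0.369. Signal near background limits Cxcl1, Cxcl5 and Cxcl2.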
